A study of Mus musculus with 6 samples.

Results

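The genes described here are 10 components of the Notch pathway, chosen by symbol: the receptors Notch1, Notch2 and Notch3, the ligands Jag1, Jag2 and Dll1, the DNA-binding nuclear partner Rbpj, and the target genes Hes1, Hey1 and Heyl. Of these, 9 had a row in a table of 15803 genes, and Dll1 had no row and was not analysed here. The table holds RNA levels of growth plate cartilage from mouse embryos at embryonic day 18.5 (E18.5), in 3 libraries labelled WT and 3 libraries labelled CKO. The WT embryos were Hnrnpk fl/fl and the CKO embryos were Col2a1-Cre;Hnrnpk fl/fl, so both genotypes carried loxP sites around exons of Hnrnpk, which encodes an RNA-binding protein. Cre was driven by the promoter of Col2a1, the gene of the main cartilage collagen, which is active in chondrocytes, whereas other cells of the dissection need not have lost Hnrnpk. Embryos of both sexes were used, and the question was how loss of Hnrnpk changes the growth plate.

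In Notch signaling, a ligand of the Jagged or Delta-like family on one cell binds a Notch receptor on its neighbor, and proteases including gamma-secretase then release the intracellular domain of the receptor. This domain enters the nucleus and joins Rbpj, which binds DNA at target genes of the Hes and Hey families and, without the Notch domain, recruits corepressors. In cartilage the pathway is known to take part in the proliferation and hypertrophic maturation of chondrocytes, and in the vessels and perichondrium around the cartilage its receptors and targets are widely used.

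Rbpj is the member on which the comparison turned, and a promoter of this gene is therefore shown. In GRCm38 Rbpj lies on the plus strand of chromosome 5, from 53466152 to 53657362, and the RefSeq table of promoters (GRCm38.p6) places 2 overlapping promoter windows within these limits, downstream of the first start in the annotation. The first window, chr5:53590096-53590395 on the plus strand, covers 250 bases before the RefSeq transcription start and 50 bases after it. Capitals mark the letters TGGGAA, the core that the Rbpj protein is known to bind, on either strand (TTCCCA when read on the plus strand).

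Rbpj promoter: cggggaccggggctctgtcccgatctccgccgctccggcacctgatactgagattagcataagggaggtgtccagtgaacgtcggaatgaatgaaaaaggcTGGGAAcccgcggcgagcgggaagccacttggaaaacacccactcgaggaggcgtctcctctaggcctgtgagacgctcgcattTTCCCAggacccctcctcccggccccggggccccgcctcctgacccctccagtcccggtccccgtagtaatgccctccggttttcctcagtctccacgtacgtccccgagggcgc

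The window held 2 matches, one on each strand, at -149 and -65 from the transcription start, and the 1 match in the second window, chr5:53590236-53590535, was the same stretch of letters as the match at -65. Among all 32851 promoter windows of this length, 25.6% held at least 1 match and 3.79% held at least 2. The windows of Notch1, Notch2, Notch3, Jag1 and Jag2 held 0 matches. For the targets Hes1, Hey1 and Heyl no promoter window was available, so they were not examined for matches. Such a match is a description of letters and not a measured binding site.

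The authors deposited CPM, the reads on a gene scaled to 1000000 reads per library. All values were whole multiples of 1 read within 0.001 reads, so that reads could be recovered: between 1183743 and 1379674 in the libraries labelled WT and between 1153871 and 1454094 in those labelled CKO. At this depth 1 read was worth 0.688 to 0.867 CPM, and a gene with 3 reads or fewer (2.06 to 2.60 CPM) counted as being at the detection floor. Intervals from reads cover counting error only. Hnrnpk itself did not separate the genotypes, with 914 ± 62.2 CPM in WT, 830 ± 105 CPM in CKO (SD, n = 3 each) and overlapping libraries (log2 fold change -0.14, limma's adjusted p = 0.622). This value covers the whole gene, in which the loxP-flanked exons were not counted apart, and the libraries are therefore called by their labels. For the protein, the paper reported loss of Hnrnpk in the CKO growth plate at an earlier embryonic stage, by western blot and immunostaining. Of 12 cartilage markers all had a row, with Col2a1 at 1411 to 3944 CPM over the 6 libraries, while Ihh, a signal of prehypertrophic chondrocytes, was at the floor in every library (0 to 2 reads).

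**Figure D1:**
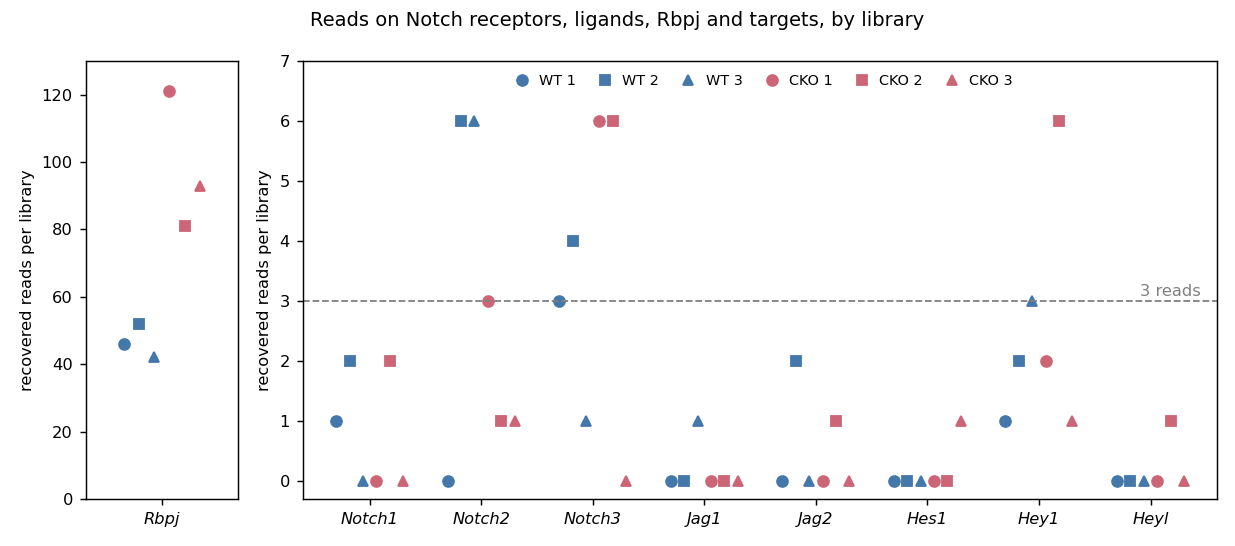
Recovered reads on each member (y axis, reads per library) in each of the 6 libraries, with WT in blue, CKO in red and a marker shape per replicate number; Rbpj has its own scale on the left, and the dashed line marks 3 reads. Rbpj had 42 to 52 reads in WT and 81 to 121 in CKO, whereas no library had more than 6 reads on any other member.

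Among the members, Rbpj was abundant enough to be followed in every library and was about 2-fold higher in the libraries labelled CKO, whereas the receptors, ligands and Hes and Hey targets were at or near the floor of detection in both genotypes. With a mean of at least 1 CPM, 4 members were tested (Notch2, Notch3, Rbpj and Hey1), and 5 (Notch1, Jag1, Jag2, Hes1 and Heyl) had 3 reads or fewer in all 6 libraries. As many as 3879 of the 15803 genes (24.5%) were likewise at 3 reads or fewer in all 6. Of the 4 members tested, 1 was higher in CKO and 0 were lower at an adjusted p under 0.05 (limma, Benjamini-Hochberg over 12155 genes), where 3.18% of all genes tested were called higher and 2.6% lower. At an unadjusted p under 0.05, limma's count was also 1 of 4 (Rbpj), against 21.3% of all genes tested. On recovered reads, Rbpj was called higher by edgeR, which tested no other member and called 9.57% of its genes, and by DESeq2, which called 6.02%. Since only members above the filter entered the fit, the count does not speak for all 10.

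Rbpj had 46, 52 and 42 reads in WT 1, WT 2 and WT 3, which is 33.3, 39.0 and 35.5 CPM. In CKO 1, CKO 2 and CKO 3 it had 121, 81 and 93 reads, which is 83.2, 58.5 and 80.6 CPM. Every library labelled CKO lay above every library labelled WT, and CKO 2 was the lowest of the 3. Among all genes tested, 14.5% had CKO libraries that lay wholly above the WT libraries. The mean level was 35.95 ± 2.87 CPM in WT against 74.1 ± 13.6 CPM in CKO (SD, n = 3 each). On the log2(CPM + 1) scale the difference was 1.01 (standard error, SE, 0.21, 95% confidence interval 0.54 to 1.48, limma's adjusted p = 0.0223), a fold of 2.01. The exact two-sided permutation test of the mean level gave p = 0.1, the smallest that 3 libraries against 3 allow.

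Summed over the libraries of a genotype, Rbpj had 140 reads in WT and 295 in CKO, a ratio of CPM of 2.06 (95% interval 1.68 to 2.53 from counting error). The log2 fold change stayed between 0.92 and 1.17 in all 12 alternative analyses, of which 7 kept the adjusted p under 0.05. Of the 5 that lost the call, 4 left out a library, namely WT 1 (limma's adjusted p = 0.1), WT 2 (0.0779), CKO 1 (0.104) or CKO 3 (0.109), and the other had a term for the replicate number. Without CKO 2 the log2 fold change was 1.17 and the adjusted p 0.00457.

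**Figure D2:**
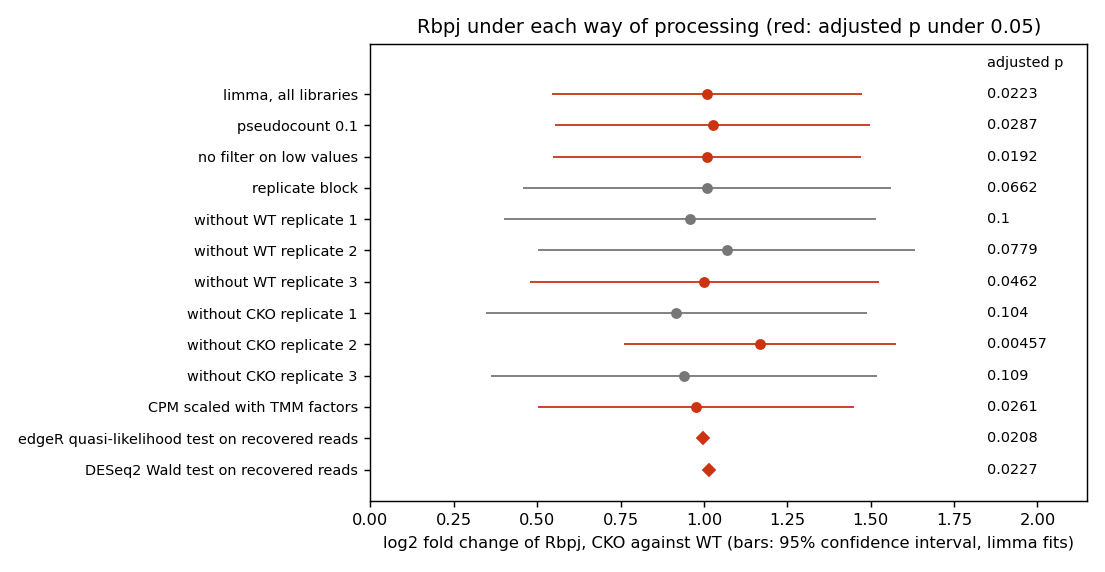
Log2 fold change of Rbpj, CKO against WT (x axis), for each way of processing (y axis), with circles and 95% confidence intervals for limma fits and diamonds for the count tests on recovered reads; the number at the right is the adjusted p, and red marks those under 0.05. All 13 estimates lie between 0.92 and 1.17, and 8 of them, the reported fit included, are red.

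By the criterion that the study used for its genes, an unadjusted p under 0.05 with a log2 fold change above 1 or below -1, Rbpj passed by a narrow margin at 1.01. This criterion called 10.4% of all genes tested, 5.3% higher and 5.1% lower. With CPM rescaled by TMM factors the value was 0.98, and with edgeR's quasi-likelihood test on recovered reads it was 0.998, so that Rbpj was just short of 1. The annotation holds 2 near-identical copies of Rbpj (Rbpj-ps1 and Rbpj-ps3, up to 99.8% identical), which had no row in the table and could share reads with it. Gm10441 and Gm40304 overlap Rbpj on the other strand and had no row either.

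Marker levels of several cell types differed between the libraries in which Rbpj differed. The summed level of 12 chondrocyte markers was 13700 to 18000 CPM in WT and 3600 to 4280 CPM in CKO, with 5 of 11 tested lower (Col2a1, Acan, Col9a1, Matn1 and Comp) and 0 higher. The 7 osteoblast markers summed to 487, 544 and 708 CPM in WT 1, 2 and 3 and to 1320, 375 and 1410 CPM in CKO 1, 2 and 3. Rbpj and the osteoblast list were thus both lowest in CKO 2 among the CKO libraries. Rbpj in CKO 2 was still above all WT libraries, whereas the osteoblast list was below them. CKO 2 also stood apart in other lists. Summed markers of fibroblasts were lowest in it among the CKO libraries (1230 CPM, against 2520 and 2490 CPM in CKO 1 and CKO 3). Those of skeletal muscle (268 CPM), keratinocytes (224 CPM) and erythroid cells (28.9 CPM) were highest in it. In CKO 2, Myog alone gave 179 CPM of the muscle sum and Hba-a2 alone gave 28.15 CPM of the erythroid sum. These sums thus rest largely on a single gene each and do not describe their lists as a whole. None of the 7 osteoblast markers was called (limma). Their log2 differences ranged from -0.57 for Col1a1, the collagen gene of bone, to 1.78 for Ibsp, which encodes bone sialoprotein (limma's adjusted p = 0.179 and 0.166). Ibsp was at 708, 83.0 and 808 CPM in CKO 1, 2 and 3, whereas Sp7 of the same list was at 4.13, 4.33 and 4.33 CPM.

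Some markers of other cells also differed between the labels. The 9 listed of 13 keratinocyte markers summed to 29.6 to 64.5 CPM in WT and 151 to 224 CPM in CKO, with Perp and Krt17 called higher. Perp alone was at 8.45 to 18.8 CPM in WT and 97.0 to 145 CPM in CKO. Krt10 (log2 fold change 0.41, limma's adjusted p = 0.484), Trp63 (-0.23, 0.889) and Sfn (1.63, 0.211) were tested and not called. Krt5, Krt14, Dsg3 and Ivl had no row, and Epcam was at 0 in WT and had 0, 6 and 1 reads in CKO 1, 2 and 3. The 8 myeloid and osteoclast markers summed to 151, 160 and 384 CPM in WT 1, 2 and 3 and to 285 to 309 CPM in CKO. The CKO sums thus lay above WT 1 and WT 2 and below WT 3. Lyz2 gave 270 CPM of the sum in WT 3, against 51.5 and 54.8 CPM in WT 1 and WT 2. Cd68, called higher, was the 1 of 7 tested that was called, and Ptprc, the common leukocyte antigen, had 0 reads in WT and 1 in CKO. Dcn, which encodes decorin, was the 1 of 7 fibroblast markers called, and it was lower in CKO. The summed fibroblast level was 3260 to 5180 CPM in WT and 1230 to 2520 CPM in CKO. The part of these cell types in the difference of Rbpj was not tested. In such bulk libraries, more cells that express a gene and more RNA of it per cell cannot be told apart.

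The receptors were close to the floor. Notch1, a receptor of many developing tissues (ENSMUSG00000026923, chromosome 2, 26457903 to 26516663), had 1, 2 and 0 reads in WT 1, 2 and 3 and 0, 2 and 0 reads in CKO 1, 2 and 3. It was not tested, and 3 of its 6 libraries were at 0. Notch1 shares identical stretches with the antisense transcripts 0610009E02Rik and Gm13568, which had no row.

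Notch2 (ENSMUSG00000027878, chromosome 3, 98013527 to 98150361) had 0, 6 and 6 reads in WT and 3, 1 and 1 reads in CKO. The libraries overlapped because WT 1 had 0 reads while the other WT libraries held more than any CKO library. The fitted log2 fold change of Notch2 was -0.59 (SE 0.70, 95% confidence interval -2.14 to 0.97, limma's adjusted p = 0.681). Over the summed reads, 12 in WT and 5 in CKO, the ratio was 0.406 (95% interval 0.112 to 1.24). The data thus leave room for a several-fold lower level as well as for a higher one, by up to 0.97 on the log2 scale of the fit. With single libraries left out the log2 fold change of Notch2 ranged from -1.43 without WT 1 (unadjusted p = 0.0247 by limma, past the criterion of the study but not the adjusted threshold) to -0.13 without WT 3.

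Notch3, the receptor known from vascular smooth muscle (ENSMUSG00000038146, chromosome 17, 32120820 to 32166852), had 3, 4 and 1 reads in WT and 6, 6 and 0 reads in CKO. CKO 3 was the lowest of all 6 libraries and CKO 1 and CKO 2 were the highest. The fitted difference on the log2 scale was 0.07 (SE 0.68, 95% confidence interval -1.44 to 1.59, limma's adjusted p = 0.967), and its sign depended on the pseudocount and on single libraries. The 11 mural cell markers summed to 184 to 340 CPM in WT and 222 to 300 CPM in CKO, with 0 of 8 called. Gm17276, antisense to Notch3, and Gm30232 hold stretches near-identical to it (up to 100% over the 2) and had no row. Notch4, the receptor of endothelial cells among the other pathway genes, had 2, 0 and 1 reads in WT and 0, 2 and 2 in CKO.

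The ligands were at the floor in every library. Jag1 (ENSMUSG00000027276, chromosome 2, 137081456 to 137116644) had 1 read in all, in WT 3. The 0 reads of the summed CKO libraries allow a level of up to 0.924 CPM (exact Poisson, 95% interval), and the 1 read in WT allows up to 1.43 CPM. Jag2 (ENSMUSG00000002799, chromosome 12, 112907819 to 112929776) had 2 reads in WT 2, 1 read in CKO 2 and 0 in the other libraries. No difference of either Jagged ligand was detectable at this depth. Dll4, the Delta-like ligand of endothelial cells, had no row and was not analysed here.

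Among the target genes, Hes1, a transcriptional repressor downstream of Notch (ENSMUSG00000022528, chromosome 16, 30064384 to 30067796), had 0 reads in all WT libraries and 1 read, in CKO 3. Heyl (ENSMUSG00000032744, chromosome 4, 123233556 to 123249875) also had 0 reads in WT and 1 read, in CKO 2. For both the summed WT libraries allow up to 0.947 CPM and the CKO libraries up to 1.395 CPM (exact Poisson, 95% interval), so that no difference was detectable. Hey1, a repressor of the Hairy and enhancer-of-split family (ENSMUSG00000040289, chromosome 3, 8663359 to 8667256), was the 1 target of the 3 with a read in every library. It had 1, 2 and 3 reads in WT and 2, 6 and 1 reads in CKO, and CKO 2 alone exceeded the WT range. Hey1 had a log2 fold change of 0.21 (SE 0.55, 95% confidence interval -1.01 to 1.43, limma's adjusted p = 0.866). The ratio over its summed reads, 6 in WT and 9 in CKO, was 1.46 (95% interval 0.465 to 5.0). Hes5, Hey2 and Nrarp, further targets of the pathway, had no row and were not analysed here.

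The endothelial markers, cells in which Notch genes are strongly used, were also few. Of 11, Kdr, Sox17 and Sox18 had no row, and Cdh5, Tie1 and Tek were at 0 in all WT libraries. Over the CKO libraries Cdh5 and Tie1 had 1 read each and Tek had 4. The sum of the listed endothelial markers was 8.7 to 17.3 CPM in WT and 9.63 to 18.2 CPM in CKO. Of this sum Egfl7 alone gave 6.52 to 15.8 CPM in WT and 7.94 to 13.0 CPM in CKO.

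Levels were compared between members as CPM per kb of the longest annotated transcript, averaged over the 6 libraries, with 95% intervals from the counting error of the summed reads. Rbpj was at 10.03 (9.13 to 11.0) and Hey1 at 0.78 (0.439 to 1.29). The level of Notch3 was 0.301 (0.193 to 0.488) and that of Notch2 was 0.21 (0.12 to 0.329). Rbpj was above all other members, whereas Hey1 and Notch3, and Notch3 and Notch2, had overlapping intervals. Hes1 (0.0984), Jag2 (0.0726), Notch1 (0.0645), Heyl (0.0265) and Jag1 (0.0251) followed with overlapping intervals. All of these also overlapped the interval of Notch2, and that of Hes1 (0.00219 to 0.481, from 1 read) reached those of Notch3 and Hey1. The order of the members below Rbpj was thus not fully resolved. Rbpj exceeded 74.3% of annotated genes on this scale, and Hey1, the next member, 36.5%. The place of Hey1 depends on the division by length, since in mean CPM Notch3 (2.41) and Notch2 (2.20) were above it (1.89).

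**Figure D3:**
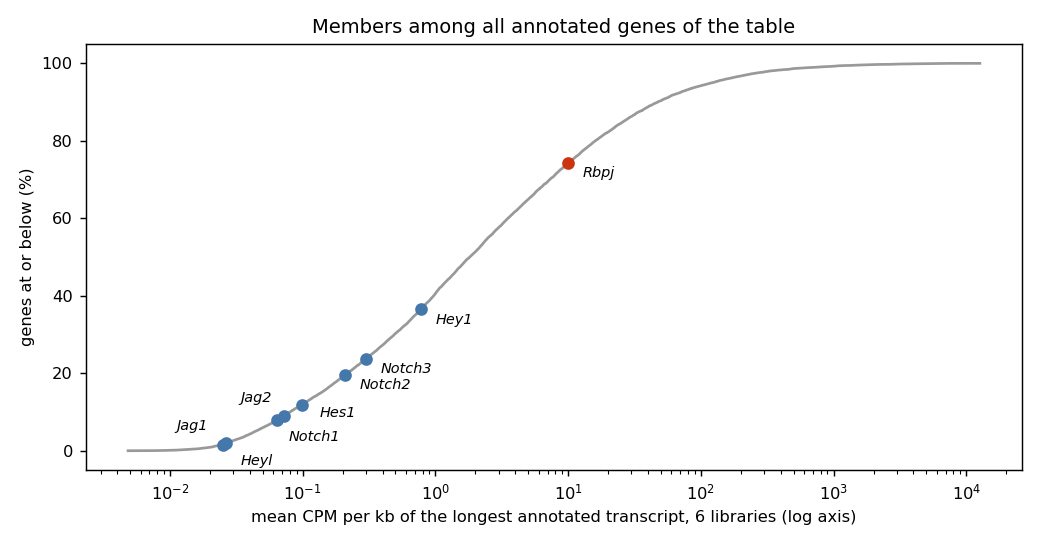
Share of annotated genes in the table at or below a level (y axis, %) against the mean CPM per kb of the longest annotated transcript over the 6 libraries (x axis, log scale), with the 9 members as points and Rbpj in red. Rbpj lies at 10.03 CPM per kb, above 74.3% of genes, and the other 8 members lie at 0.78 or less.

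Most other genes of the pathway passed the filter of a mean of 1 CPM, and few of them were called. This filter lies below 3 reads (2.06 to 2.60 CPM), and some genes tested had 3 reads or fewer in all 6 libraries. For genes with so few reads, the lack of a call does not show an equal level. Of 76 other pathway genes 70 had a row and 59 were tested, of which 1 was higher (Ccnd1), 1 was lower (Dlk1) and 57 were not called. This is 3.39% called, against 5.78% of all genes tested in either direction. The median log2 fold change of the 59 was 0.04, beside 0.01 over all genes tested. In 15 of the 59 the WT and CKO libraries were without overlap, as in 27.7% of all genes tested.

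**Figure D4:**
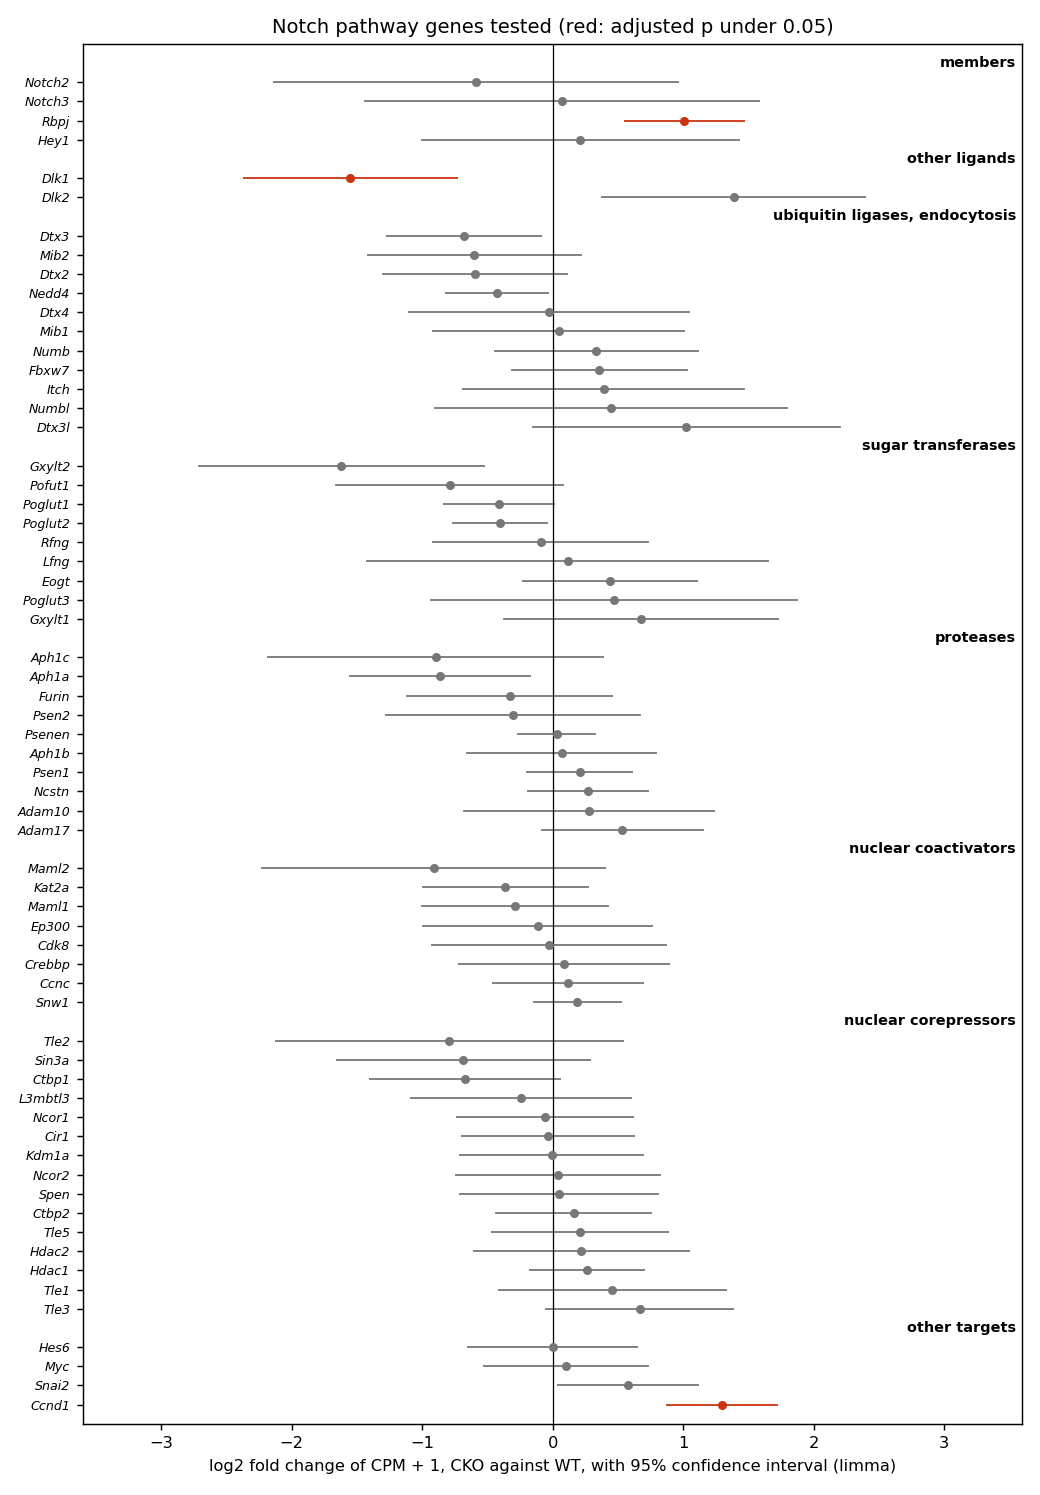
Log2 fold change of CPM + 1, CKO against WT (x axis, with 95% confidence intervals from limma), for the 4 members tested and the 59 other pathway genes tested (y axis), grouped by role, with red for an adjusted p under 0.05. Rbpj and Ccnd1 lie to the right and Dlk1 to the left of 0 in red, and most other intervals span 0.

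Ccnd1, which encodes cyclin D1 of the G1 phase and is one of the genes known to respond to Notch among many other signals (ENSMUSG00000070348, chromosome 7, 144929931 to 144939925), had 39, 48 and 39 reads in WT and 111, 111 and 99 reads in CKO. Its level was 28.3, 36.0 and 32.95 CPM in WT and 76.3, 80.1 and 85.8 CPM in CKO. All CKO libraries lay above all WT libraries, with little spread within either genotype. Ccnd1 thus had a log2 fold change of 1.30 (SE 0.19, limma's adjusted p = 0.00505) and was called in all 12 alternatives. The other targets with a row, named after their values were seen, were not called. Hes6 had a log2 fold change of 0.00, Myc of 0.10 and Snai2 of 0.58, the last with an unadjusted p = 0.04 and limma's adjusted p = 0.208.

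Dlk1, a Delta-like protein without the motif that activates Notch in the canonical ligands (ENSMUSG00000040856, chromosome 12, 109452823 to 109463336), had the most reads of the other pathway genes. It had 1236, 1098 and 1520 reads in WT and 347, 962 and 261 reads in CKO. CKO 2 lay close below the WT libraries, and CKO 1 and CKO 3 far below them. In CPM this was 896, 824 and 1284 in WT and 239, 694 and 226 in CKO. On the log2 scale the difference was -1.55 (SE 0.37, limma's adjusted p = 0.0385), and without CKO 2 it was -2.08 (0.00023). Dlk1 was called in 4 of 12 alternatives. CKO 2 was also the CKO library in which Rbpj was lowest. Dlk2, its paralog and likewise named after its values were seen, had 4, 3 and 1 reads in WT and 8, 13 and 6 in CKO, with a difference of 1.39 on the log2 scale (unadjusted p = 0.0121, limma's adjusted p = 0.11).

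**Figure D5:**
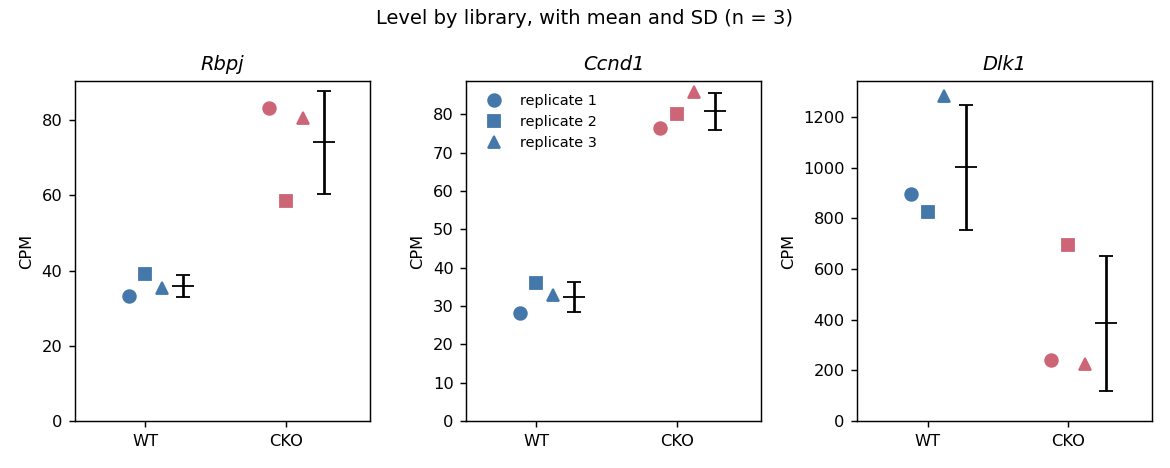
Level in CPM (y axis, starting at 0) of Rbpj, Ccnd1 and Dlk1 in the libraries labelled WT (blue) and CKO (red), one marker shape per replicate number, with the mean and SD (n = 3) beside them. CKO libraries lie above WT for Rbpj and Ccnd1 and below WT for Dlk1, and CKO 2 is the CKO library nearest to WT for Rbpj (58.5 CPM) and Dlk1 (694 CPM).

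The 9 sugar transferases tested, which modify the extracellular part of the receptors, included none that was called, where 5.78% of all genes tested were, and 2 had an unadjusted p under 0.05, where 21.3% of all genes did. Lfng, the Fringe enzyme of somite formation, had 1, 0 and 3 reads in WT and 1, 5 and 0 in CKO (log2 fold change 0.12, limma's adjusted p = 0.947). Among genes picked after their values were seen, Gxylt2, a xylosyltransferase, had 3, 6 and 5 reads in WT and 1, 0 and 1 in CKO (log2 fold change -1.62, limma's adjusted p = 0.0877). Poglut2 differed by -0.40 on the log2 scale (unadjusted p = 0.0354, limma's adjusted p = 0.196). Gxylt2 and Poglut2 were the 2 with an unadjusted p under 0.05.

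None of the 10 proteases, all of which were tested, was called and 1 had an unadjusted p under 0.05, against 5.78% and 21.3% of all genes tested. They had 48 to 3209 reads over the 6 libraries, and Psenen, a subunit of gamma-secretase, had the most (403 ± 17.5 CPM in WT and 411 ± 18.3 CPM in CKO, SD, n = 3). Aph1a, another subunit of gamma-secretase, had 122, 108 and 97 reads in WT and 52, 114 and 37 in CKO, and CKO 2 was thus inside the range of WT and the other CKO libraries below it. Its log2 fold change was -0.86 (unadjusted p = 0.0202, limma's adjusted p = 0.145), and it was called lower when CKO 2 was left out. Psenen and Aph1a were likewise picked after their values were seen.

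Of the nuclear proteins that work with Rbpj, none was called, where 5.78% of all genes tested were called and 21.3% had an unadjusted p under 0.05. Of the coactivators, 8 of 10 were tested and 0 were called, with a median log2 fold change of -0.07 and none at an unadjusted p under 0.05. Of the corepressors, 15 of 16 were tested and 0 were called, with a median log2 fold change of 0.04 and likewise none at an unadjusted p under 0.05. The difference of Rbpj from these partners was not tested. Among 11 tested genes of ligand endocytosis and ubiquitin ligases 0 were called and 2 had an unadjusted p under 0.05, against 5.78% and 21.3% of all genes tested. These 2 were Nedd4, an abundant ubiquitin ligase (log2 fold change -0.43, limma's adjusted p = 0.201), and Dtx3, a ligase of the Deltex family (log2 fold change -0.68, limma's adjusted p = 0.176), both named after their values were seen.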

How the data were processed

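RNA of E18.5 growth plate cartilage was made into stranded mRNA libraries, 3 per genotype. The authors deposited CPM per gene and library. The submitters' processing notes name cutadapt (2.5), HISAT2 and featureCounts (1.6.3), and the genome build, annotation and strand setting are not given in the sources used here. Of the identifiers, 15212 of 15217 from Ensembl were found in GENCODE M21 (GRCm38), which gave positions and lengths.

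The values of each library were divided by that of 1 read, and 100% came out whole (tolerance 0.001 reads). With limma (3.58.1, R 4.3.3), log2(CPM + 1) was modeled on genotype for 12155 genes averaging at least 1 CPM, using moderated variances with a trend and Benjamini-Hochberg adjustment over all genes tested. Fold changes on this scale understate those of low genes. The labels do not state separate animals, so p-values measure the spread between libraries, which may be technical. Alternatives were a pseudocount of 0.1, no filter, a replicate block, each library left out in turn, TMM scaling, and edgeR (4.0.16) and DESeq2 (1.42.0) on recovered reads, which called 737 of 7704 and 637 of 10584 genes.

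Near copies were sought with BLAST (2.17.0; 90% identity over 300 bases). Sequences came from RefSeq. Named were all members, the other pathway genes with an adjusted p under 0.05, and Notch4, Dll4, Lfng, Hes5, Hey2, Nrarp and Hnrnpk, and any other pathway gene is said to be named after its values were seen. Members and lists were chosen with earlier results of these data known. Skeletal muscle (24.0 to 120 CPM in WT, 67.4 to 268 CPM in CKO), erythroid (0.725 to 5.25 CPM, 2.06 to 28.9 CPM) and nerve markers (4.22 to 4.5 CPM, 1.73 to 9.38 CPM) were also summed, with 0 called in each list.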

Additional observations from a re-analysis of the deposited data

How the results depend on the processing

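Rbpj kept its direction in all 12 alternatives and its call in 7. With each library left out in turn its log2 fold change was 0.92 to 1.17, and it was called in 2 of 6 such fits. With the replicate number as a block it was 1.01 (limma's adjusted p = 0.0662), and 0 members were called higher. Libraries of the same number did not deviate together (correlations 0.04, -0.13 and -0.10), so the numbers are not taken to pair them. Over all genes the block moved the calls from 387 higher and 316 lower to 225 and 160.

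The log2 fold change of Notch3 turned to -0.61 with a pseudocount of 0.1 and ranged from -0.34 to 0.87 with a library left out, turning to -0.24 without WT 3, -0.31 without CKO 1 and -0.34 without CKO 2. That of Hey1 ranged from -0.24 to 0.52, turning to -0.05 without WT 1 and -0.24 without CKO 2. None was called, and the cause was not tested. Notch2 ranged from -1.43 to -0.13 over the 11 alternatives that gave it a value. edgeR's own filter removed Notch2, Notch3 and Hey1, and DESeq2 gave no adjusted p for Notch2 and Hey1.

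The count of members called higher was 0 to 1 with a library left out, and the counts past the criterion of the study were 0 to 1 in each direction. That count of higher members was 0 with TMM scaling and with edgeR. Of the other pathway genes, 1 was called higher in every alternative. The count called lower was 0 with a pseudocount of 0.1, with the block and with edgeR, and 0 to 2 with a library left out, the 2 being Aph1a and Dlk1 without CKO 2. The log2 fold change of Dlk1 was -2.08 to -1.27 with a library left out.

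Depth limits all members except Rbpj, since 1 read was worth 0.688 to 0.867 CPM. Calls over all genes fell to 122 higher without CKO 3 and 76 lower without WT 2 and rose to 658 and 560 without CKO 2.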

Other observations

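The receptor genes are long and yet had few reads. In the table as a whole, the share of annotated protein-coding genes with a row rose with the length of the longest transcript, from 49.4% up to 2 kb to 86.4% over 6 kb, while the median level of those with a row fell from 11.0 to 4.46 CPM. Notch1, Notch2 and Notch3, at 9.49, 10.5 and 8.02 kb, all belong to the longest class, and at 0.612, 2.20 and 2.41 CPM each lay below its median.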
